A study of Mus musculus with 24 samples.

Results

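FGF receptors, FGF ligands and the genes that ERK signalling switches on to restrain itself were followed in C2C12 cells, a mouse myoblast line. The 10 genes were taken by name from a list: the receptors Fgfr1 and Fgfr4, the ligands Fgf2 and Fgf7, the Sprouty genes Spry1, Spry2 and Spry4, the phosphatase gene Dusp6, and the ETS transcription factor genes Etv4 and Etv5. They are 10 of the 35968 genes quantified, and all 10 passed the filter on low counts that left 14577 genes for testing. Cells were kept undifferentiated and subconfluent in medium with serum, and RNA was taken 48 h after siRNA transfection. There were 4 groups of 3 libraries. One received an siRNA against Keap1 (siKeap1), one an siRNA against Fem1b (siFem1b), one both siRNAs (siFem1b/Keap1), and one a non-targeting siRNA (siCont). Each target was depleted with a single siRNA sequence. Whether the 3 repeats came from separate cultures is not stated, and the p-values then reflect the scatter among these libraries alone, possibly a technical one.

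FGF ligands bind receptor tyrosine kinases together with heparan sulphate, and the receptors pass the signal through FRS2, GRB2, SOS and RAS to the RAF, MEK and ERK kinases. ERK raises transcription of ETV4 and ETV5, and of inhibitors that act back on the pathway: Sprouty proteins restrain signalling between the receptor and RAF, and DUSP6 dephosphorylates ERK in the cytoplasm. In myoblasts, FGF2 is known as a mitogen that delays differentiation, and FGFR1 and FGFR4 are the main receptors of the muscle lineage. KEAP1 and FEM1B are substrate receptors of CUL3 and CUL2 ubiquitin ligases.

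Library totals lay between 31.9 and 43.0 M estimated counts, and the common biological coefficient of variation was 0.0503. Keap1 averaged 9.99 CPM (counts relative to the library total, scaled for composition) in siKeap1, 59.2 in siFem1b, 9.38 in siFem1b/Keap1 and 61.8 in siCont. Fem1b averaged 102, 13.2, 12.7 and 96.9 CPM in the same order of groups. The labelled cell type was checked with 8 myoblast markers, all of which were expressed, and their summed level was 1561 to 1675 CPM in siKeap1, 2266 to 2383 in siFem1b, 1932 to 1991 in siFem1b/Keap1 and 1789 to 1817 in siCont. Of these 8, 1 was higher and 4 lower than siCont in siKeap1, 8 and 0 in siFem1b, and 5 and 2 in siFem1b/Keap1. Over all tested genes 18.4% were higher and 23.8% lower in siKeap1, 30.0% and 32.1% in siFem1b, and 33.8% and 33.7% in siFem1b/Keap1. The sum of 9 markers of differentiating muscle moved more, at 16.6 to 17.9 CPM in siKeap1, 259 to 278 in siFem1b, 174 to 184 in siFem1b/Keap1 and 17.2 to 20.9 in siCont, with none at 0 in all libraries. Of these 9 genes, 9 were higher in siFem1b and in siFem1b/Keap1, while 1 was higher and 6 were lower in siKeap1. Acta1 weighed heavily in the sum, with means of 13.5 CPM in siKeap1, 64.4 in siFem1b, 132.5 in siFem1b/Keap1 and 6.89 in siCont. Myog averaged 0.0367, 59.3, 4.97 and 1.57 CPM in the same order. In siFem1b/Keap1 against siFem1b, 1 of the 9 was higher and 8 were lower, so the sum hides most of that difference. The 7 epithelial markers, led by Krt14 and Krt19, summed to 102 to 108 CPM in siKeap1 and 82.2 to 90.4 in siFem1b. The sum was 146 to 164 CPM in siFem1b/Keap1 and 42.5 to 47.6 in siCont. Of the 7, 3 stayed under 1 CPM and 5 were tested. Krt14 averaged 62.45, 12.9, 32.1 and 9.70 CPM in the same order of groups, and Krt19 averaged 40.6, 71.1, 116 and 34.7. Krt14 was thus highest with siKeap1 and Krt19 with both siRNAs, so the sum joins different patterns. Against siCont, 3 were called higher with siKeap1, 4 with siFem1b and 5 with both, and 0 lower. Of 6 leukocyte markers, 4 stayed under 1 CPM, Adgre1 among them at 0 throughout. The other 2, Cd14 and Cd68, were expressed: Cd14 averaged 13.2 CPM in siKeap1, 9.22 in siFem1b, 13.7 in siFem1b/Keap1 and 9.89 in siCont, and Cd68 averaged 3.59, 2.06, 5.71 and 1.56 CPM. Both were called higher in siKeap1 and in siFem1b/Keap1, and Cd68 also in siFem1b (adjusted p = 0.043). All 4 endothelial and all 4 adipocyte markers stayed under 1 CPM. The part of these shifts in the results below was not tested, and in bulk RNA fewer cells of a type and less RNA per cell cannot be told apart.

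The siRNA sequences are shown because a short stretch of each, the seed, could pair with other mRNAs, the members included. Each is written as the target strand in DNA letters, 5′ to 3′, with the bases that pair with guide positions 2 to 8 in capitals.
siKeap1: gcgccaatgttGACACGGa
siFem1b: gaagatcagtgCAGAATTa
siCont: tggtttacatgTTTTCTGa
The siKeap1 and siFem1b sequences each matched in full the coding sequence of 1 gene, Keap1 and Fem1b, both on chromosome 9, and the siCont sequence matched 0 genes. One transcript of each member was searched for the 7 seed bases. The siKeap1 seed occurred in Fgf7, in the 5′ UTR and in the coding sequence, and in Fgf2, in the 5′ UTR and the 3′ UTR.
Fgf7 coding sequence, siKeap1 seed: aaatggatactGACACGGa
Fgf2 3′ UTR, siKeap1 seed: ggctgaaacagGACACGGt
The siFem1b seed occurred at 2 positions in the 3′ UTR of Fgf2, in the 3′ UTR of Spry4 and in the coding sequence of Etv5.
Fgf2 3′ UTR, siFem1b seed, first: ctggtagtcttCAGAATTg
Fgf2 3′ UTR, siFem1b seed, second: tatttatttacCAGAATTt
Etv5 coding sequence, siFem1b seed: cacccacccatCAGAATTc
The siCont seed occurred at 2 positions in the 3′ UTR of Fgf2. Fgfr1, Fgfr4, Spry1, Spry2, Dusp6 and Etv4 held none of the 3 seeds. Among 13337 genes with a 3′ UTR, 2.46% held the siKeap1 seed there, 12.4% the siFem1b seed and 23.6% the siCont seed. These shares cover 3′ UTRs alone, while members were searched over the whole transcript, so matches in a 5′ UTR or coding sequence have no background here. A match is only a description of the letters. Of the members with the siKeap1 seed, Fgf7 was higher in siKeap1 and Fgf2 did not pass the threshold there (log2 fold change 0.10, adjusted p = 0.44). Of those with the siFem1b seed, Fgf2 and Spry4 were higher in siFem1b and Etv5 did not pass the threshold (0.12, adjusted p = 0.10). Every value of Fgf2 against siCont is set against cells given an siRNA whose seed Fgf2 also holds.

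Levels of different genes were compared per length, as deposited TPM (a length-corrected share of the transcripts). In siCont, Etv4 was the most abundant of the 10 at 132 ± 9.48 TPM (mean ± SD, n = 3 here and below), followed by Fgfr1 at 82.8 ± 4.71 TPM. Spry2 at 37.5 ± 2.78 TPM and Dusp6 at 35.8 ± 3.02 TPM came next, and their libraries overlapped. Fgf7 at 7.44 ± 0.585 TPM and Etv5 at 6.92 ± 0.377 TPM also overlapped, and Spry4 stood below them at 6.13 ± 0.198 TPM. Fgf2 at 3.68 ± 0.825 TPM, Spry1 at 1.42 ± 0.202 TPM and Fgfr4 at 0.263 ± 0.126 TPM closed the order. Of the 2 receptors Fgfr1 was thus the more abundant, and it stayed far above Fgfr4 in siFem1b, at 94.6 ± 2.77 TPM for Fgfr1 and 1.79 ± 0.600 TPM for Fgfr4. The order at the top differed in siFem1b/Keap1, where Fgfr1 had 111 ± 1.23 TPM and Etv4 91.3 ± 7.05 TPM, without overlap. In siKeap1, Fgf7 reached 17.2 ± 0.709 TPM, above Spry4 at 7.85 ± 0.395 TPM and Etv5 at 7.84 ± 0.478 TPM. The TPM of Etv4, Fgf2 and Fgf7, among others, include short transcripts, which weigh heavily in a sum per length. Transcript Fgf7-203 (853 bases) took 13.7 to 16.3% of the counts of Fgf7 in siCont and 15.5 to 19.5% in siKeap1.

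**Figure D1:**
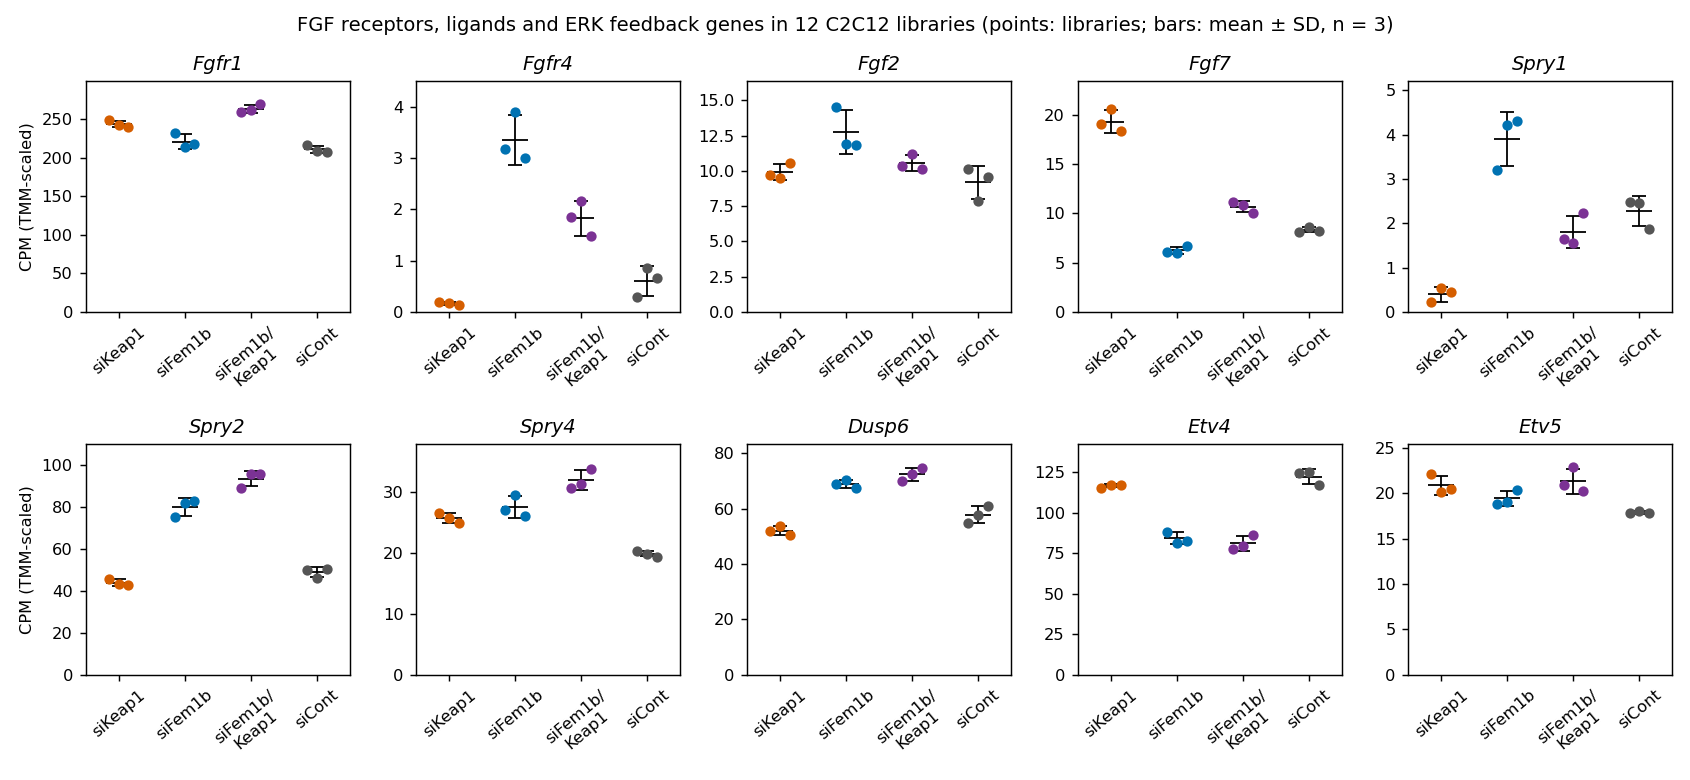
Level of each gene in CPM (vertical axis, linear, from 0, a scale of its own per panel) in the 4 siRNA groups; points are libraries and bars the mean ± SD of 3. Fgfr4 and Spry1 are low in siKeap1 and high in siFem1b, Fgf7 is high in siKeap1, and Spry2 is high in both groups that received siFem1b.

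Among the receptors, the scarce Fgfr4 moved and the abundant Fgfr1 hardly did. Fgfr4, a receptor tyrosine kinase gene on chromosome 13 (GRCm38, 55152640 to 55168759), had 0.187, 0.182 and 0.132 CPM in siKeap1, 3.17, 3.91 and 3.00 CPM in siFem1b, 1.85, 2.16 and 1.47 CPM in siFem1b/Keap1, and 0.287, 0.860 and 0.660 CPM in siCont. These rest on 5 to 7 counts per library in siKeap1, 114 to 140 in siFem1b, 49 to 83 in siFem1b/Keap1 and 11 to 27 in siCont. Every siKeap1 library was below, and every library with siFem1b above, all siCont libraries. Against siCont, Fgfr4 fell 3.51-fold in siKeap1 (log2 fold change -1.81, SE 0.41, adjusted p = 0.0013), and rose 5.65-fold in siFem1b (2.50, SE 0.25, adjusted p = 6.2e-08) and 3.10-fold in siFem1b/Keap1 (1.63, SE 0.26, adjusted p = 2.2e-05). The fall of Fgfr4 in siKeap1 was not called in the first run alone (log2 fold change -1.12, adjusted p = 0.26).

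Fgfr1, on chromosome 8 (25513654 to 25575718), lay between 239.8 and 248.5 CPM in siKeap1, 214 and 232 in siFem1b, 259 and 269 in siFem1b/Keap1, and 207.5 and 216 in siCont. Fgfr1 rose 1.16-fold in siKeap1 (log2 fold change 0.21, SE 0.038, adjusted p = 0.00018) and 1.25-fold in siFem1b/Keap1 (0.32, SE 0.038, adjusted p = 4e-07). In siFem1b its libraries overlapped siCont and it did not pass the threshold (0.07, SE 0.038, adjusted p = 0.13), although it did without siFem1b replicate 2 (0.10, adjusted p = 0.036) and in the second run alone (0.09, adjusted p = 0.043). Of the counts of Fgfr1, transcript Fgfr1-203 took 46.8 to 50.9% in siKeap1, 42.1 to 48.2% in siFem1b, 44.8 to 46.1% in siFem1b/Keap1 and 41.2 to 45.0% in siCont, and transcript 202 of the same gene took 33.9 to 37.2%, 34.9 to 41.1%, 36.9 to 38.7% and 38.8 to 42.0%. The shares of both transcripts in siKeap1 thus lay outside those in siCont, but the deposited tables give no error for such estimates and they were not tested.

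The ligand gene Fgf7, keratinocyte growth factor, which acts mainly on the epithelial form of FGFR2, moved in opposite directions with the 2 siRNAs. On chromosome 2 (126034658 to 126091185), it had 19.0, 20.5 and 18.3 CPM in siKeap1, 6.07, 5.94 and 6.68 CPM in siFem1b, 11.1, 10.8 and 10.0 CPM in siFem1b/Keap1, and 8.14, 8.63 and 8.21 CPM in siCont. No library of one group overlapped those of another. Fgf7 rose 2.32-fold in siKeap1 (log2 fold change 1.21, SE 0.072, adjusted p = 1.1e-10), fell 1.33-fold in siFem1b (-0.42, SE 0.079, adjusted p = 0.00014) and rose 1.28-fold in siFem1b/Keap1 (0.36, SE 0.075, adjusted p = 0.00029).

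Fgf2, which encodes basic FGF, on chromosome 3 (37348346 to 37410108), lay between 9.48 and 10.6 CPM in siKeap1, 11.8 and 14.6 in siFem1b, 10.1 and 11.2 in siFem1b/Keap1, and 7.90 and 10.15 in siCont. The siFem1b libraries were above all siCont libraries and Fgf2 rose 1.38-fold there (log2 fold change 0.47, SE 0.096, adjusted p = 0.00034). In siKeap1 (0.10, SE 0.099, adjusted p = 0.44) and siFem1b/Keap1 (0.19, SE 0.098, adjusted p = 0.091) Fgf2 did not pass the threshold, and without siCont replicate 1 the value in siFem1b/Keap1 did (0.26, adjusted p = 0.043). The deposited TPM of Fgf2, not tested, gave another order: 5.54 ± 0.871 in siKeap1, 6.32 ± 1.89 in siFem1b, 6.94 ± 1.25 in siFem1b/Keap1 and 3.68 ± 0.825 in siCont. The short transcript Fgf2-206 (380 bases) took 0.797 to 2.44%, 0.694 to 1.27%, 1.98 to 2.89% and 0.496 to 0.784% of the counts in that order. Of the exonic bases of Fgf2, 9.44% (640 bases) also lie in exons of Nudt6 on the other strand, and the strand setting of the counting is not given in the sources used here. Nudt6 stood at 3.54 CPM in siKeap1, 2.94 in siFem1b, 3.01 in siFem1b/Keap1 and 3.52 in siCont, so reads of the pair cannot be told apart in that stretch.

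The 3 Sprouty genes did not move as one. Spry1, on chromosome 3 (37639947 to 37644598), was the member with the largest fall, with 0.218, 0.546 and 0.449 CPM in siKeap1, 3.20, 4.21 and 4.31 CPM in siFem1b, 1.64, 1.56 and 2.23 CPM in siFem1b/Keap1, and 2.48, 2.45 and 1.88 CPM in siCont. The counts behind Spry1 were 7 to 21 per library in siKeap1, 130 to 164 in siFem1b, 60 to 74 in siFem1b/Keap1 and 77 to 95 in siCont. Spry1 fell 5.44-fold in siKeap1 (log2 fold change -2.44, SE 0.26, adjusted p = 3e-07) and rose 1.72-fold in siFem1b (0.78, SE 0.18, adjusted p = 0.0011), in both cases with no overlap of libraries. With both siRNAs its libraries overlapped siCont (-0.33, SE 0.20, adjusted p = 0.16). An antisense gene, Gm42922, covers 24.4% of the exonic bases of Spry1.

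Spry2, the most abundant Sprouty gene here, on chromosome 14 (105891947 to 105896819), had 45.6, 43.1 and 42.5 CPM in siKeap1, 75.2, 81.5 and 82.8 CPM in siFem1b, 89.0, 95.5 and 95.6 CPM in siFem1b/Keap1, and 49.9, 46.2 and 50.4 CPM in siCont. Spry2 rose 1.63-fold in siFem1b (log2 fold change 0.71, SE 0.050, adjusted p = 4.9e-10) and 1.91-fold in siFem1b/Keap1 (0.93, SE 0.050, adjusted p = 5.7e-12), where every library was above those of all other groups. In siKeap1 it fell 1.12-fold (-0.16, SE 0.051, adjusted p = 0.015). That small fall of Spry2 missed the threshold without siCont replicate 1 (adjusted p = 0.054), siCont replicate 3 (0.064), siKeap1 replicate 2 (0.053) or siKeap1 replicate 3 (0.065), and in the first run alone (0.17).

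Spry4, on chromosome 18 (38586247 to 38601415), was higher in all 3 depletions. It lay between 24.9 and 26.4 CPM in siKeap1, 26.0 and 29.4 in siFem1b, 30.5 and 33.7 in siFem1b/Keap1, and 19.4 and 20.2 in siCont, with no overlap with siCont. Spry4 rose 1.30-fold in siKeap1 (log2 fold change 0.38, SE 0.058, adjusted p = 3.1e-05), 1.39-fold in siFem1b (0.47, SE 0.057, adjusted p = 7.6e-07) and 1.61-fold in siFem1b/Keap1 (0.69, SE 0.057, adjusted p = 3.2e-09).

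Dusp6, which encodes the cytoplasmic ERK phosphatase, on chromosome 10 (99263231 to 99267489), had 51.8, 53.8 and 50.6 CPM in siKeap1, 68.9, 70.5 and 67.3 CPM in siFem1b, 70.0, 72.6 and 74.6 CPM in siFem1b/Keap1, and 54.9, 57.8 and 60.8 CPM in siCont. The libraries with siFem1b were above, and the siKeap1 libraries below, all siCont libraries. Dusp6 rose 1.19-fold in siFem1b (log2 fold change 0.25, SE 0.045, adjusted p = 7.6e-05) and 1.25-fold in siFem1b/Keap1 (0.32, SE 0.045, adjusted p = 3.5e-06). It fell 1.11-fold in siKeap1 (-0.15, SE 0.046, adjusted p = 0.011). This fall of Dusp6 missed the threshold without siCont replicate 3 (adjusted p = 0.073) or siKeap1 replicate 3 (0.053), in the first run alone (0.32) and with an offset for transcript length (0.15).

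Etv4, an ETS transcription factor gene on chromosome 11 (101769742 to 101785371), was lower in both groups that received siFem1b, where Spry2, Spry4 and Dusp6 were higher. It had 115, 117 and 117 CPM in siKeap1, 88.3, 81.4 and 82.5 CPM in siFem1b, 77.8, 79.3 and 86.4 CPM in siFem1b/Keap1, and 124.5, 125 and 117 CPM in siCont. Etv4 fell 1.45-fold in siFem1b (log2 fold change -0.54, SE 0.046, adjusted p = 7.2e-09) and 1.51-fold in siFem1b/Keap1 (-0.59, SE 0.046, adjusted p = 1.4e-09), with every library below all siCont libraries. In siKeap1 its libraries overlapped siCont (-0.07, SE 0.046, adjusted p = 0.26).

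Etv5, the closest relative of Etv4 on the list, on chromosome 16 (22381309 to 22439719), lay between 20.1 and 22.1 CPM in siKeap1, 18.8 and 20.4 in siFem1b, 20.2 and 22.9 in siFem1b/Keap1, and 17.8 and 18.1 in siCont. Etv5 rose 1.17-fold in siKeap1 (log2 fold change 0.22, SE 0.061, adjusted p = 0.0063) and 1.19-fold in siFem1b/Keap1 (0.25, SE 0.061, adjusted p = 0.0011). In siFem1b it did not pass the threshold (0.12, SE 0.061, adjusted p = 0.10), although its libraries did not overlap siCont. The rise of Etv5 in siKeap1 missed the threshold in the first run alone (adjusted p = 0.093) and with the length offset (0.064).

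Counted over the list, siKeap1 had 4 members higher (Fgfr1, Fgf7, Spry4, Etv5) and 4 lower (Fgfr4, Spry1, Spry2, Dusp6) than siCont, where 18.4% of all tested genes were higher and 23.8% lower. In siFem1b 6 were higher (Fgfr4, Fgf2, Spry1, Spry2, Spry4, Dusp6) and 2 lower (Fgf7, Etv4), beside 30.0% and 32.1% of all genes. In siFem1b/Keap1 7 were higher (Fgfr1, Fgfr4, Fgf7, Spry2, Spry4, Dusp6, Etv5) and 1 lower (Etv4), beside 33.8% and 33.7%. The median log2 fold change of the members was 0.02 with siKeap1, 0.36 with siFem1b and 0.32 with both, against -0.02, -0.01 and 0.01 over all tested genes. Libraries did not overlap siCont for 8 members with siKeap1, 9 with siFem1b and 8 with both siRNAs, beside 51.2%, 63.6% and 70.3% of all genes. The 3 comparisons share the siCont libraries, so their values stand side by side and are not independent of each other.

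**Figure D2:**
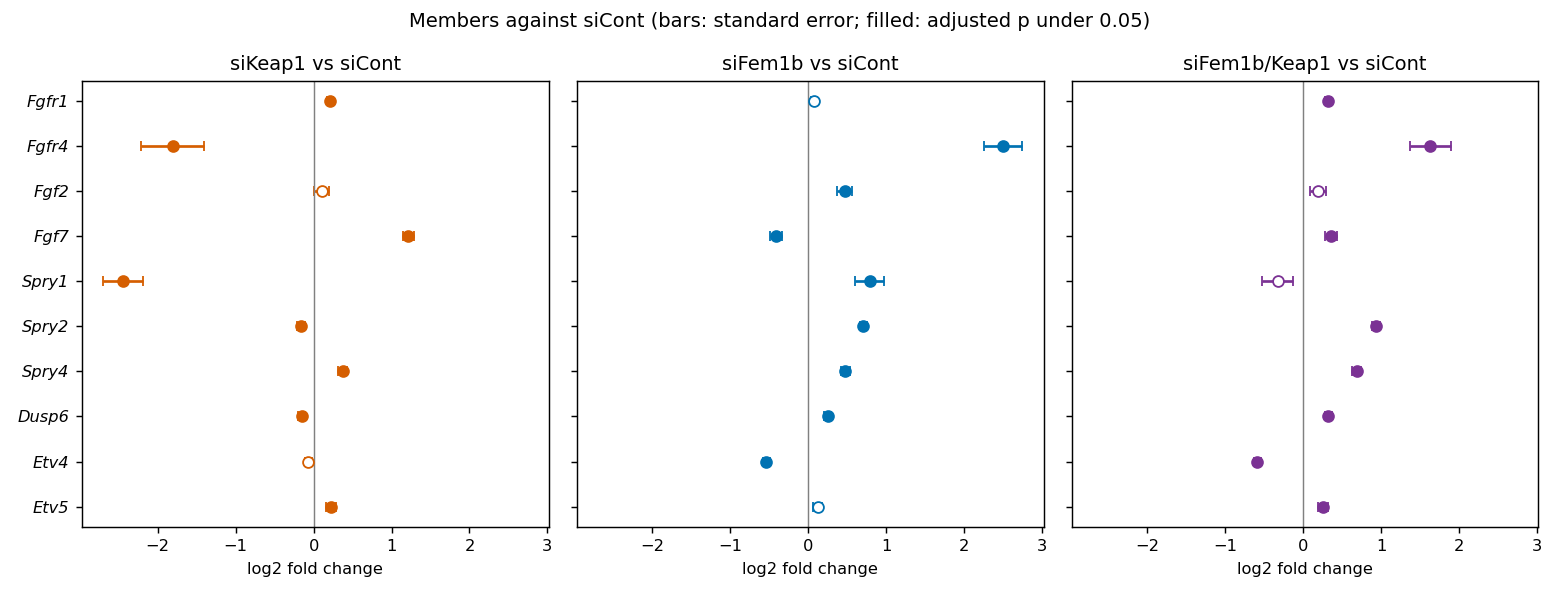
Log2 fold change of each gene against siCont (horizontal axis) in the 3 depletions, with bars of ± 1 SE; filled points passed an adjusted p of 0.05 and open points did not. Fgfr4 and Spry1 reach -1.81 and -2.44 in siKeap1, and Etv4 lies at -0.54 and -0.59 in the groups with siFem1b.

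Both groups with an siRNA against Fem1b differed from siKeap1 most in Fgfr4 and Spry1, followed by Fgf7 in siFem1b and by Spry2 in siFem1b/Keap1. In siFem1b against siKeap1, 5 members were higher and 3 lower, beside 32.1% and 31.8% of all genes, with Fgfr4 raised 19.8-fold (4.31 on the log2 scale, SE 0.31, adjusted p = 6e-10), Spry1 9.37-fold higher (3.23, SE 0.24, adjusted p = 8.5e-10) and Fgf7 3.10-fold lower (-1.63, SE 0.074, adjusted p = 5.6e-13). In siFem1b/Keap1 against siKeap1, which asks what Fem1b depletion does once Keap1 is depleted, 6 were higher and 2 lower, beside 32.0% and 31.6%. Fgfr4 was 10.9-fold higher (3.44, SE 0.34), Spry1 4.33-fold (2.11, SE 0.26), Spry2 2.14-fold (1.09, SE 0.050) and Dusp6 1.39-fold (0.47, SE 0.045), while Fgf7 was 1.81-fold (-0.85, SE 0.070) and Etv4 1.44-fold lower (-0.52, SE 0.046), all with adjusted p of 1e-06 or less. Fgfr1 was also called here (0.11, SE 0.038, adjusted p = 0.015), but not without siKeap1 replicate 3 (adjusted p = 0.057), siFem1b replicate 3 (0.072), siFem1b/Keap1 replicate 1 (0.079) or siFem1b/Keap1 replicate 3 (0.14).

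In siFem1b/Keap1 against siFem1b, which asks what Keap1 depletion does once Fem1b is depleted, 4 members were higher and 3 lower, beside 21.3% and 21.8% of all genes. Fgf7 was raised 1.71-fold (0.78 on the log2 scale, SE 0.077, adjusted p = 1.6e-07), Fgfr1 1.19-fold (0.25, SE 0.038), Spry2 1.17-fold (0.23, SE 0.048) and Spry4 1.16-fold (0.21, SE 0.055). Spry1 was 2.16-fold lower (-1.11, SE 0.19, adjusted p = 0.0001) and Fgfr4 1.82-fold lower (-0.87, SE 0.21, adjusted p = 0.0026). Fgf2 was 1.21-fold lower (-0.27, SE 0.095, adjusted p = 0.026), a call lost without siFem1b replicate 1 (-0.17, adjusted p = 0.17), siFem1b/Keap1 replicate 1 (0.069) or siFem1b/Keap1 replicate 3 (0.069), and reversed to 0.15 with the length offset. Dusp6 (0.07, adjusted p = 0.22) and Etv4 (-0.05, adjusted p = 0.41) did not pass the threshold.

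The interaction, the difference of siFem1b/Keap1 and siFem1b less that of siKeap1 and siCont, measures how far the double depletion departs from the sum of the single changes on the log2 scale. It was called for 3 members above the sum and 1 below it, beside 6.11% and 5.32% of all genes. For Spry1 the single changes add up to -1.66 and the double depletion stood at -0.33, an interaction of 1.33 (SE 0.33, adjusted p = 0.012). For Spry2 the sum was 0.55 and the double depletion 0.93 (interaction 0.39, SE 0.070, adjusted p = 0.0011). Spry2 was thus lower in siKeap1 than in siCont but higher in siFem1b/Keap1 than in siFem1b. For Dusp6 the sum was 0.10 and the double depletion 0.32 (interaction 0.22, SE 0.064, adjusted p = 0.029). The call of Dusp6 was lost when any 1 of 8 of the 12 libraries was left out: siCont replicate 3 (adjusted p = 0.081), siKeap1 replicate 1 (0.067) or 3 (0.077), siFem1b replicate 1 (0.051) or 3 (0.13), and siFem1b/Keap1 replicate 1 (0.063), 2 (0.061) or 3 (0.14). For Fgf7 the sum was 0.80 and the double depletion 0.36 (interaction -0.44, SE 0.11, adjusted p = 0.010). Of these 4 calls only that of Spry2 was made in the first run alone, where the adjusted p was 0.42 for Fgf7, 0.12 for Spry1 and 0.41 for Dusp6.

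The other 6 members did not pass this test. Fgfr4 had an interaction of 0.94 (SE 0.47, adjusted p = 0.22), and 1.29 (adjusted p = 0.041) without siCont replicate 1. Fgf2 had -0.38 (SE 0.14, adjusted p = 0.089), and -0.46 (adjusted p = 0.037) without siFem1b replicate 2. Spry4 had -0.16 (SE 0.080, adjusted p = 0.22). Fgfr1, Etv4 and Etv5 lay between -0.09 and 0.04.

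**Figure D3:**
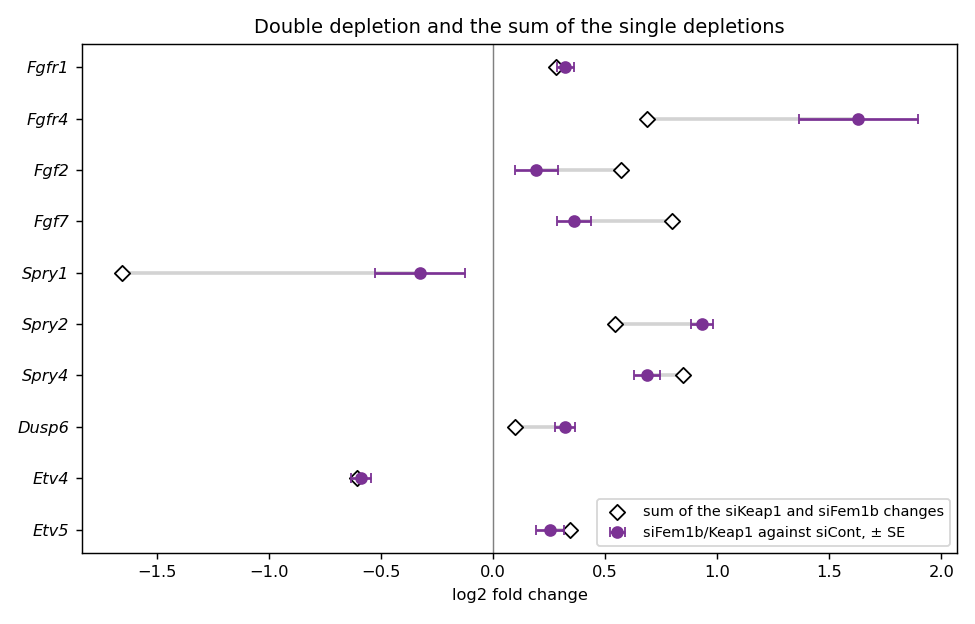
Log2 fold change of siFem1b/Keap1 against siCont (filled points, ± 1 SE) beside the sum of the siKeap1 and siFem1b changes (diamonds) on the horizontal axis, by gene. The widest gap is that of Spry1, at -0.33 against -1.66, while Etv4 lies at -0.59 against -0.61.

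The rest of the pathway was read from lists of known genes, whose counts stand beside a background of 18.4% of all tested genes higher and 23.8% lower in siKeap1, 30.0% and 32.1% in siFem1b, and 33.8% and 33.7% in siFem1b/Keap1. These counts are descriptions and were not tested against that background. Of 22 FGF ligands, 9 were tested, Fgf2 and Fgf7 included: 2 were higher and 4 lower in siKeap1, 4 higher and 1 lower in siFem1b, and 3 higher and 1 lower in siFem1b/Keap1. Fgf1, acidic FGF, rose 8.59-fold in siKeap1 (adjusted p = 1.3e-07) and 5.94-fold in siFem1b/Keap1 (adjusted p = 7.3e-07). It was scarce, with means of 2.285 CPM in siKeap1, 0.411 in siFem1b, 1.58 in siFem1b/Keap1 and 0.269 in siCont, so these folds rest on a control level near the floor. Fgf10, a mesenchymal ligand, fell 1.91-fold in siKeap1 (adjusted p = 6.5e-05) and rose 1.94-fold in siFem1b (adjusted p = 2.9e-06) and 1.67-fold in siFem1b/Keap1 (adjusted p = 5.8e-05). Of 13 tested receptors and co-receptors, 4 were higher and 4 lower in siKeap1, 6 and 5 in siFem1b, and 7 and 2 in siFem1b/Keap1. Sdc4, a heparan sulphate proteoglycan gene, fell by 0.41 on the log2 scale with siKeap1, 0.31 with siFem1b and 0.59 with both. Fgfr3 rose 1.54-fold in siKeap1 (adjusted p = 0.012), 2.02-fold in siFem1b (adjusted p = 8.4e-05) and 2.16-fold in siFem1b/Keap1 (adjusted p = 2.3e-05).

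Of 12 receptor adaptors, 2 were higher and 5 lower in siKeap1, 3 and 6 in siFem1b, and 0 and 9 in siFem1b/Keap1, with a median log2 fold change of -0.20 in the last, against 0.01 over all tested genes. Sos2, a RAS exchange factor gene, fell 1.52-fold in siFem1b and 1.57-fold in siFem1b/Keap1, and Ptpn11, which encodes the phosphatase SHP2, fell 1.25-fold and 1.28-fold. Of 14 genes of the RAS to ERK cascade, 3 were higher and 7 lower in siKeap1, 3 and 4 in siFem1b, and 4 and 6 in siFem1b/Keap1. Mapk3, which encodes ERK1, rose 1.35-fold in siFem1b and 1.23-fold in siFem1b/Keap1.

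A further list held 23 tested genes that restrain RAS or MAP kinases, Spry1, Spry2, Spry4 and Dusp6 included. Not all of them act on ERK, Dusp8, Dusp10 and Dusp16 among these. Of the 23, 4 were higher and 7 lower in siKeap1, 9 and 8 in siFem1b, and 9 and 9 in siFem1b/Keap1. The medians were -0.04, -0.02 and -0.04 on the log2 scale. For all tested genes the medians were -0.02, -0.01 and 0.01. In siFem1b, Il17rd, which encodes the FGF inhibitor SEF, rose 2.07-fold (adjusted p = 6.7e-10) and Dusp8 rose 1.67-fold, while Dusp9 fell 2.51-fold (adjusted p = 4.9e-13) and Dusp5, a nuclear ERK phosphatase gene, fell 1.48-fold. In siKeap1, Dusp1 rose 1.56-fold and Dusp4 1.41-fold, both genes of nuclear MAP kinase phosphatases. More of the list was lower than higher there, 7 against 4, and Nf1 fell 1.24-fold (adjusted p = 2e-05).

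**Figure D4:**
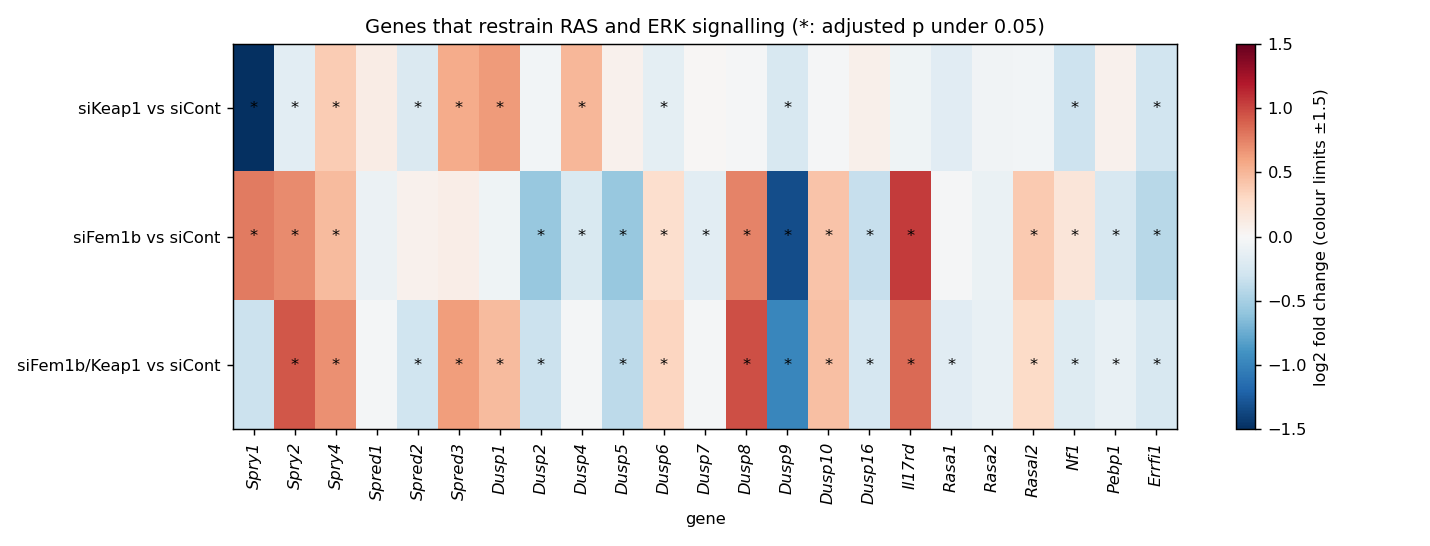
Log2 fold change against siCont (colour, clipped at ± 1.5) of 23 genes that restrain RAS or MAP kinases, not all of them acting on ERK, in the 3 depletions (rows). An asterisk marks an adjusted p under 0.05. Spry2 and Dusp8 are higher and Dusp9 lower in both groups with siFem1b.

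Of 17 ERK output genes, a list that holds Spry2, Spry4, Dusp6, Etv4 and Etv5, 7 were higher and 6 lower in siKeap1, 6 and 8 in siFem1b, and 6 and 7 in siFem1b/Keap1. In siFem1b, Myc and Ccnd1, growth genes that encode a transcription factor and cyclin D1, fell 2.00-fold and 1.69-fold, and Fosl1, an AP-1 subunit gene, fell 2.01-fold, while Egr1, an immediate early gene, rose 1.84-fold. In siFem1b/Keap1, Myc fell 2.00-fold, Ccnd1 1.88-fold and Fosl1 1.31-fold, but Egr1 did not pass the threshold (log2 fold change 0.01, adjusted p = 0.85). In siKeap1 Egr1 fell 1.21-fold (adjusted p = 0.00051). Of 15 tested ETS factors, 3 were higher and 4 lower in siKeap1, 4 and 6 in siFem1b, and 6 and 8 in siFem1b/Keap1. Etv1, the third gene of the Etv4 and Etv5 subfamily, fell 1.28-fold in siKeap1 (adjusted p = 0.0023) and rose 2.15-fold in siFem1b (adjusted p = 4.6e-10) and 2.12-fold in siFem1b/Keap1 (adjusted p = 3.7e-10). In both groups with siFem1b, Etv1 was thus higher and Etv4 lower. Of 16 tested genes of other receptor tyrosine kinases and their ligands, 8 were higher and 5 lower in siKeap1, 8 and 7 in siFem1b, and 7 and 8 in siFem1b/Keap1. Hgf, the ligand of MET, rose 3.27-fold in siFem1b and 5.17-fold in siFem1b/Keap1.

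Genes whose pattern over the 12 libraries was most like that of a member were found by the root mean square difference of centred log2 CPM. They were Lrp10 for Fgfr1 (0.028), Lix1 for Fgfr4 (0.291), Uvssa for Fgf2 (0.091), Arhgdib for Fgf7 (0.080), Pitx3 for Spry1 (0.327), Plin3 for Spry2 (0.051), Acadsb for Spry4 (0.057), Prkra for Dusp6 (0.042), Scarb1 for Etv4 (0.039) and Bmper for Etv5 (0.046). Fgfr4 and Spry1, the members with the fewest counts, had the largest differences, but their own values also spread most. The SD of their log2 values over the 12 libraries was 1.623 and 1.266, against 0.216 for Fgf2 and 0.118 for Etv5. The difference was not scaled by that spread, so it does not rank likeness between members. The libraries compared are the same for both genes of each pair.

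Spry4 was left out of the promoter search. Among the other members, promoter windows from RefSeq (GRCm38.p6, 250 bases before to 50 after a start) were found for 7: Fgfr4, Fgf2, Fgf7, Spry1, Spry2, Dusp6 and Etv5. They were searched on both strands for an ETS motif (CCGGAAG, in 8.86% of 32851 windows), an AP-1 motif (TGANTCA, 7.81%), a cAMP response element (TGACGTCA, 1.79%), the core of the antioxidant response element bound by NRF2 (TGACNNNGC, 12.4%), and the E-boxes CAGCTG (16.3%) and CACCTG (20.2%). Fgf2 held the antioxidant response element core at 2 positions, as GCTGCGTCA (the reverse strand) at -144 to -136 and as TGACGCGGC at -6 to 3, and 1 of 2 windows of Etv5 held CAGCTG at -207 to -202. The windows of Fgfr4, Fgf7, Spry1, Spry2 and Dusp6 held none of these letters, which says nothing of the factors' binding.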

How the data were processed

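Poly(A)-selected RNA was sequenced from 12 libraries, each in 2 runs. Per the submitters' processing notes, the authors used kallisto 0.44.0 and build mm10, and deposited per transcript an estimated count (expected counts, which need not be whole), a TPM and an effective length. Trimming and strand settings are not given in the sources used here. Identifiers in GENCODE M21 (GRCm38) were found for 116728 of 118489 transcripts (98.5%), and the rest held 0.606 to 0.640% of a table's counts. Deposited estimated counts were summed per gene and over both runs and rounded, and deposited TPM were averaged over runs and not tested.

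Groups came from the labels. After filterByExpr and TMM scaling (factors 0.952 to 1.04), edgeR 4.0.16 in R 4.3.3 was used with 1 term per group over the 12 libraries (robust quasi-likelihood F test, 2-sided). Benjamini-Hochberg adjustment of the p-values ran over all 14577 genes of each of 7 comparisons, with a threshold of 0.05. A low gene can pass this filter through the groups where it is high. The script was checked on simulated counts. CPM are TMM-scaled.

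The members, lists and tests were chosen with earlier results of these data known. The motifs, the seed search and the genes drawn for the pathway's restraints were chosen after the files were seen. All members are named, as are up to 4 genes with the smallest p of a list and comparison, with a mean of at least 1 CPM, of which a part is printed. The gene Spry3 of the restraint list was not analysed here.

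Whether each second run belongs to its first run was checked in 3 versions, tried one after the other, each after the result of the one before was known. A correlation of log2(CPM + 1) matched 10 of 12 second runs with their own first run, a correlation of values centred per gene (log2(CPM + 0.1), genes with at least 2000 counts) matched 11, and a chi-square distance of the counts matched 11. The second runs that failed, 2, 1 and 1, matched another library of the same group, so the check does not settle pairing within a group. Runs were added as labelled. Alternatives were other scalings, filters and tests (DESeq2 1.42.0, limma-voom with limma 3.58.1), a length offset, each run alone, the compared groups only, a replicate block, and each library left out.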

Additional observations from a re-analysis of the deposited data

Results flagged for a closer look

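For 4 members the change with siKeap1 differed between cells given siFem1b and cells not given it, by the test of the interaction, which called 6.11% of all tested genes above and 5.32% below the sum of the single changes. The interaction was 1.33 for Spry1, 0.39 for Spry2, 0.22 for Dusp6 and -0.44 for Fgf7, on the log2 scale. Keap1 depletion came with a fall of Spry1 of 1.11 on the log2 scale in cells given siFem1b and of 2.44 in cells without it. For Spry2 the change with siKeap1 was 0.23 with siFem1b and -0.16 without, so its sign differed. That small fall of Spry2 missed the threshold when some single libraries were left out and in the first run alone. For Fgf7 the change was 0.78 with siFem1b and 1.21 without. For Dusp6 it was 0.07 with siFem1b, where it did not pass the threshold, and -0.15 without. The call of Dusp6 was lost when any 1 of 8 of the 12 libraries was left out. Of the 4 interaction calls only that of Spry2 was made in the first run alone.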

How the results depend on the processing

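Counts of called members stayed within 1.5 times the reported count in 74 of 76 cases over the alternatives and in 84 of 84 with a library left out. The first run alone, which holds fewer reads, gave 4 members called in siKeap1 against siCont in place of 8, and 1 in the interaction in place of 4. With each library left out in turn, members called ranged from 6 to 8 (siKeap1 against siCont), 8 to 9 (siFem1b against siCont), 8 to 9 (siFem1b/Keap1 against siCont), 7 to 8 (siFem1b/Keap1 against siKeap1), 6 to 7 (siFem1b/Keap1 against siFem1b), 8 to 8 (siFem1b against siKeap1) and 3 to 5 (interaction). Single members kept direction and side of the threshold in 710 of 746 and 807 of 840 cases. Of the reversed values, that of Fgf2 in siFem1b/Keap1 against siFem1b (0.153 with the length offset, cause not tested) belonged to a called change and the others to members not called. The interaction of Etv4 was -0.003 at 5 CPM, -0.027 with the length offset, -0.142 in the first run, and -0.067 to 0.054 with a library left out. That of Fgfr1 was -0.006 in the first run and -0.017 to 0.080 with a library left out. In the first run Etv4 in siKeap1 stood at 0.036 and Spry1 in siFem1b/Keap1 at 0.024, and with a library left out Etv5 in siFem1b/Keap1 against siKeap1 ranged from -0.023 to 0.070. Library totals in place of TMM moved the median of all genes in siFem1b/Keap1 against siCont by 0.123, and made Fgfr1 (adjusted p = 0.00088) and Etv5 (0.0048) called in siFem1b against siCont. The filter at 5 CPM in 3 libraries leaves out Fgfr4 and Spry1, whose few counts limit their precision.

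A replicate block changed no call: 8, 8, 8, 8, 7, 8 and 4 members were called in the 7 comparisons. Deviations of same-numbered libraries correlated between -0.078 and 0.117 over 18 pairs, and of libraries with other numbers between -0.16 and 0.174. The ranges overlap, so no pairing by number was seen. Deviations from means of 3 libraries cannot settle whether same-numbered libraries were handled together.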
